A study of Mus musculus with 56 samples.

Results

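The 6 genes described here are Dmpk, its neighbours Six5 and Dmwd, and the RNA-binding proteins Mbnl1, Mbnl2 and Celf1, which together make up the myotonic dystrophy locus of the mouse and the splicing regulators tied to that disease. They were found by Entrez gene ID among the 19072 genes of the deposited expression table, and all 6 had whole read counts and passed the filter on low values. The choice rested on the comparison of daytime with nighttime feeding, over the day and at each time of day, so these differences are given below as descriptions without a test. Tests are given for changes over the day within each regimen, which the choice did not use.

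Gastrocnemius, a calf muscle, came from female C57BL/6J mice aged 9 weeks in a cycle of 12 h of light and 12 h of darkness. After 7 days with food at all hours, food was given for 7 days in the light phase only (daytime-restricted feeding, DRF) or in the dark phase only (nighttime-restricted feeding, NRF). Polyadenylated RNA was sequenced at 7 zeitgeber times (ZT, the hours since the light came on), which were 0, 4, 8, 12, 16, 20 and 24, with 4 libraries at each time in each regimen and 56 in all. The labels do not say whether the 4 libraries of a group came from separate animals, so the p-values below measure the spread between libraries, which may be technical. The protocol names no strand-marking step, so sense and antisense transcription over a gene cannot be told apart.

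DMPK is a serine/threonine kinase of skeletal, cardiac and smooth muscle. In the human gene a CTG repeat lies in the non-coding tail of the transcript, and its expansion causes myotonic dystrophy type 1: the long CUG repeat RNA collects in nuclear foci, holds MBNL proteins there and is accompanied by more CELF1 protein, so that many muscle transcripts keep their fetal splice forms. MBNL and CELF proteins bind different sites in pre-mRNA and often act in opposite directions on the same exons. The labels name no such expansion in these mice, and in the 18 annotated reference transcripts of mouse Dmpk the longest run of CTG was 3 repeats.

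The 3 genes of the locus lie on chromosome 7 of build GRCm38.p6, are read in the same direction and almost touch. Dmwd (gene 13401, 19076112 to 19082778) encodes a WD-repeat protein and ends 867 bases before Dmpk (13400, 19083646 to 19093821). Six5 (20475, 19094544 to 19098549), a homeodomain transcription factor, starts 722 bases after the end of Dmpk. Its end overlaps that of Bhmg1 on the other strand by 279 bases, and Bhmg1 had almost no reads. The other 3 genes lie apart: Mbnl1 (56758) on chromosome 3, 60472559 to 60629750, Mbnl2 (105559) on chromosome 14, 120275652 to 120431698, and Celf1 (13046) on chromosome 2, 90940259 to 91019497.

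The 250 bases before a transcript start that RefSeq gives for each of 4 of these genes (GRCm38.p6, plus strand) are printed here, since the 3 locus genes are read from neighbouring starts and Celf1 had the smallest rhythm p of the 6. For Dmwd, Dmpk and Celf1 that start lies inside the gene span given above. Capitals mark the E-box core CANNTG and the GC box GGGCGG, each searched on both strands. The windows are chr7:19075950-19076199 for Dmwd, chr7:19083608-19083857 for Dmpk, chr7:19094294-19094543 for Six5 and chr2:90940147-90940396 for Celf1.
Dmwd: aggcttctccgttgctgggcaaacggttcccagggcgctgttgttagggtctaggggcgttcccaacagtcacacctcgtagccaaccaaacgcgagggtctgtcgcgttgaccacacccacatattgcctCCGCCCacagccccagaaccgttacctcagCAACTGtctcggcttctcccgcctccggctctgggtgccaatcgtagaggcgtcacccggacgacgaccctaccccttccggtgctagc
Dmpk: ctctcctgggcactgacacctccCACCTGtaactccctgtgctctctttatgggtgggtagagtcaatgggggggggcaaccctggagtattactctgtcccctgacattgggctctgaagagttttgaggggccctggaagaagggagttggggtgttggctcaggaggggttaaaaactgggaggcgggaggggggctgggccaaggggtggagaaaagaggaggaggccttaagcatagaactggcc
Six5: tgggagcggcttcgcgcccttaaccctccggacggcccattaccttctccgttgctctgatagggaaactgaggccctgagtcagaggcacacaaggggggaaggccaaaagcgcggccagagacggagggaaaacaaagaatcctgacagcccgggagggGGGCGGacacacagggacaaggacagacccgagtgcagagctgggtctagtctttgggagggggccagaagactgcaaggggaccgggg
Celf1: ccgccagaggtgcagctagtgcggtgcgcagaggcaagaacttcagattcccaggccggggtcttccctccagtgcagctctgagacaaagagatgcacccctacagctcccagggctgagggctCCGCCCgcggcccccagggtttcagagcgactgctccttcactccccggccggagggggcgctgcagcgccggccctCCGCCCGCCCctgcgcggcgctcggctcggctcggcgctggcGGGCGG
The Dmpk window held 1 CANNTG and no GGGCGG, Dmwd 1 of each, Six5 1 GGGCGG and Celf1 4 GGGCGG. Of 32851 promoters in the RefSeq table, 66.2% held CANNTG and 32.7% held GGGCGG in a window of the same length. The E-box CACGTG, which is contained in CANNTG and is the form bound by the clock factors CLOCK and BMAL1, was in none of these 4 windows. It was in 6.02% of all promoters and in 1 of the 2 Mbnl1 windows.

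Levels are CPM, reads per 1000000 of the authors' library size, from read counts recovered from the deposited scores. Differences are of log2(CPM + 1), so those of scarce genes come out too small. The libraries held 28173234 to 36183625 recovered reads. Markers of the muscle fibre (7 genes, Ckm and Acta1 among them) summed to a median of 164121 CPM in DRF libraries and 147987 CPM in NRF libraries, and no marker of the 10 cell type lists was at 0 in all libraries. In a test of the mean over the day (limma adjusted p under 0.05), 8.35% of all genes tested were higher in DRF than in NRF and 7.53% lower. All 5 red blood cell genes tested and 3 of the 7 muscle fibre genes were higher, and 1 of 3 satellite cell genes was lower. None of the 28 other markers passed. The marker calls were not followed under the other settings, and the part of these cell types in the results below was not tested. In bulk muscle, fewer cells of a type and less RNA per cell cannot be told apart. Library DRF ZT20 replicate 1 stood apart from its group in Mbnl1 and Mbnl2, and DRF ZT24 replicate 4 in Mbnl2; they had the lowest levels of both transcripts among the 56 libraries, and results that rest on them are given with and without them.

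Per kilobase of the gene length recovered with the counts, Dmpk was the most abundant of the 6. It stood at 99.0 ± 12.6 CPM per kb in DRF and 80.9 ± 11.4 CPM per kb in NRF (SD, n = 28 libraries each). This order rests on the recovered lengths, 4330 bases for Dmpk and 18717 bases for Mbnl1. Before division by length Mbnl1 was higher, with a mean of 468 CPM against 389 CPM for Dmpk. Mbnl1 stood at 23.4 ± 5.19 CPM per kb in DRF and 26.6 ± 4.55 in NRF, and Mbnl2 at 23.3 ± 4.52 CPM per kb in DRF and 25.7 ± 5.24 in NRF, so these neighbours in the order did not differ beyond their spread. Dmwd came next with 18.3 ± 1.84 CPM per kb in DRF and 16.7 ± 1.58 in NRF. Celf1 followed with 11.2 ± 1.28 CPM per kb in DRF and 12.0 ± 1.06 in NRF. Six5, like many transcription factors a scarce transcript, was lowest at 1.91 ± 0.286 CPM per kb in DRF and 1.86 ± 0.218 in NRF. Six5 rested on 121 to 273 reads a library, where counting error alone gives a coefficient of variation of 7.57% in DRF and 7.53% in NRF, against a mean of 12.8% in DRF and 9.39% in NRF between libraries of a group. For Dmpk, with 7933 to 16875 reads, the counting part was below 1% in both regimens and the libraries of a group varied by 9.95% in DRF and 11.7% in NRF on average.

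**Figure D1:**
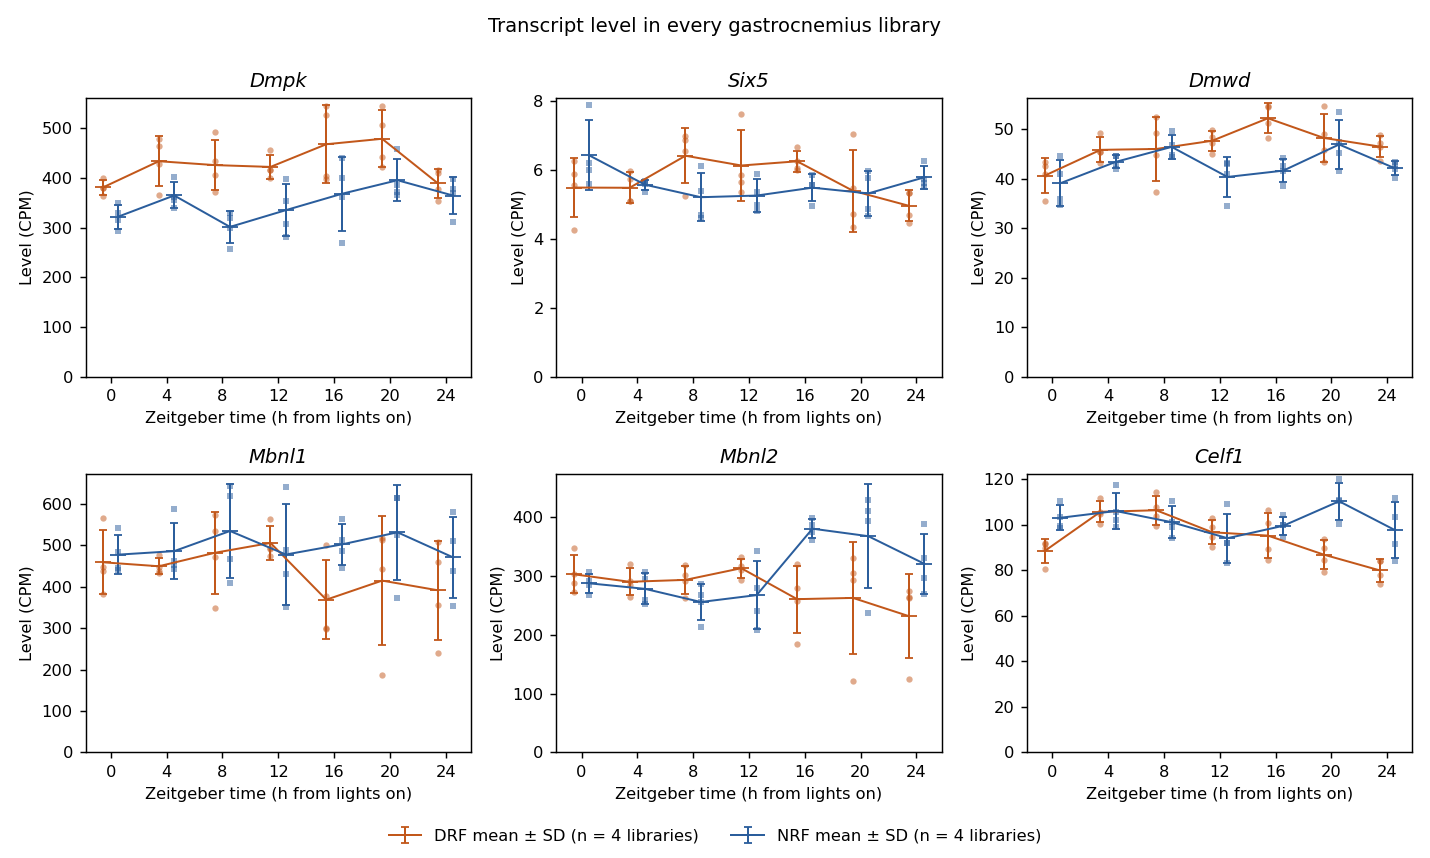
Level (CPM, linear axes from 0) of each gene in every library against zeitgeber time (h). Dots are DRF libraries and squares NRF libraries; lines join group means, with bars of 1 SD over 4 libraries. Dmpk lay higher in DRF at all 7 times, by group mean, and Mbnl2 in DRF lay below NRF from ZT16 to ZT24.

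Counted over the 6 genes and 7 times, the 4 DRF libraries and the 4 NRF libraries did not overlap in 11 of 42 pairs of groups, with DRF above in 7 and below in 4. Among all genes tested, the share without overlap was 7.98% at ZT0, 9.72% at ZT4, 4.65% at ZT8, 10.5% at ZT12, 18.3% at ZT16, 6.18% at ZT20 and 12.2% at ZT24. DRF lay wholly above for 3.84% of genes at ZT0, 5.77% at ZT4, 2.56% at ZT8, 5.2% at ZT12, 7.76% at ZT16, 2.7% at ZT20 and 6.75% at ZT24. It lay wholly below for 4.14% at ZT0, 3.95% at ZT4, 2.09% at ZT8, 5.29% at ZT12, 10.5% at ZT16, 3.48% at ZT20 and 5.41% at ZT24. The 6 genes were chosen on this contrast, so their count is a description and nothing is read from it.

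The kinase gene of the locus had the higher mean under daytime feeding at every time of day, under each of the scalings tried. At ZT0 the 4 libraries had 363.2, 380.8, 400.9 and 380.0 CPM of Dmpk in DRF, against 330.3, 293.4, 314.9 and 350.7 CPM in NRF. At ZT4 the levels were 365.5, 464.5, 427.6 and 478.3 CPM in DRF and 362.2, 356.5, 339.5 and 401.5 CPM in NRF. At ZT8 they were 492.7, 406.1, 433.9 and 371.9 CPM in DRF and 299.7, 257.8, 319.0 and 329.6 CPM in NRF. All 4 DRF libraries lay above all 4 NRF libraries at ZT0 and ZT8, while at ZT4 1 DRF library lay within the NRF range. At ZT12 the levels were 457.1, 416.2, 416.2 and 400.4 CPM in DRF and 306.7, 398.6, 281.3 and 354.7 CPM in NRF, again without overlap. At ZT16 they were 397.2, 527.1, 544.4 and 404.1 CPM in DRF and 362.8, 440.9, 268.2 and 400.8 CPM in NRF. At ZT20 they were 507.6, 545.2, 442.2 and 421.7 CPM in DRF and 365.8, 385.8, 372.7 and 458.2 CPM in NRF. At ZT24 they were 352.8, 409.9, 378.2 and 416.4 CPM in DRF and 377.5, 312.0, 370.8 and 398.1 CPM in NRF. From ZT16 on the 2 regimens overlapped, most of all at ZT24.

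In log2 units the Dmpk difference, DRF minus NRF, was 0.24 ± 0.12 at ZT0, 0.24 at ZT4, 0.50 at ZT8, 0.34 at ZT12, 0.35 at ZT16, 0.27 at ZT20 and 0.10 at ZT24, each with the same SE of 0.12. Over the day it was 0.31 ± 0.05 (SE, 1.24-fold), and 27 of 28 DRF libraries lay above the NRF median of 356 CPM. A smaller absolute difference over the day was found for 99.2% of the 12025 genes tested. Dmpk was chosen on this contrast, so that rank is a description and nothing is read from it. The Dmpk difference over the day was 0.31 with the trend of each library on gene length removed and 0.31 without the 2 libraries that stood apart. It was 0.24 when CPM were taken on the total of recovered reads. Of all genes tested, 15.9% passed the day-mean test at a limma adjusted p under 0.05, and nothing is read from that share for genes chosen on this contrast.

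The neighbours on either side of Dmpk differed less. Dmwd ranged from 35.5 to 54.7 CPM with a median of 46.8 in DRF, and from 34.4 to 53.4 CPM with a median of 42.9 in NRF. Its difference over the day was 0.13 ± 0.03 log2 units (1.09-fold), and 24 of 28 DRF libraries lay above the NRF median. That value was 0.05 on the total of recovered reads, and 0.09 once each library was corrected for gene length. All 4 DRF libraries lay above all 4 NRF libraries at ZT12, with a difference of 0.24 ± 0.08, at ZT16, with 0.32 ± 0.08, and at ZT24, with 0.14 ± 0.08. On the total of recovered reads these differences were 0.08, 0.17 and 0.08, and the difference at ZT0 was -0.06 in place of 0.06. At ZT16 the libraries had 54.4, 54.7, 51.3 and 48.3 CPM in DRF against 38.4, 41.4, 44.1 and 42.5 CPM in NRF, with no overlap. At ZT8 the means were almost level, 46.0 ± 6.54 CPM in DRF and 46.4 ± 2.39 CPM in NRF (SD, n = 4 each).

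Six5 ranged from 4.26 to 7.64 CPM with a median of 5.71 in DRF, and from 4.61 to 7.90 CPM with a median of 5.59 in NRF. Its difference changed sign over the day, at -0.20 ± 0.11 log2 units at ZT0, 0.26 ± 0.11 at ZT8, 0.16 ± 0.11 at ZT16 and -0.19 ± 0.11 at ZT24. At ZT16 all 4 DRF libraries (6.0 to 6.7 CPM) lay above all 4 NRF libraries (4.9 to 5.9 CPM). At ZT24 all 4 DRF libraries (4.5 to 5.3 CPM) lay below all 4 NRF libraries (5.5 to 6.3 CPM). On the total of recovered reads the difference was 0.03 at ZT16 and -0.24 at ZT24. Over the day the difference of 0.07 ± 0.04 log2 units was close to 0, and it was -0.0017 on the total of recovered reads, so no direction is given.

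**Figure D2:**
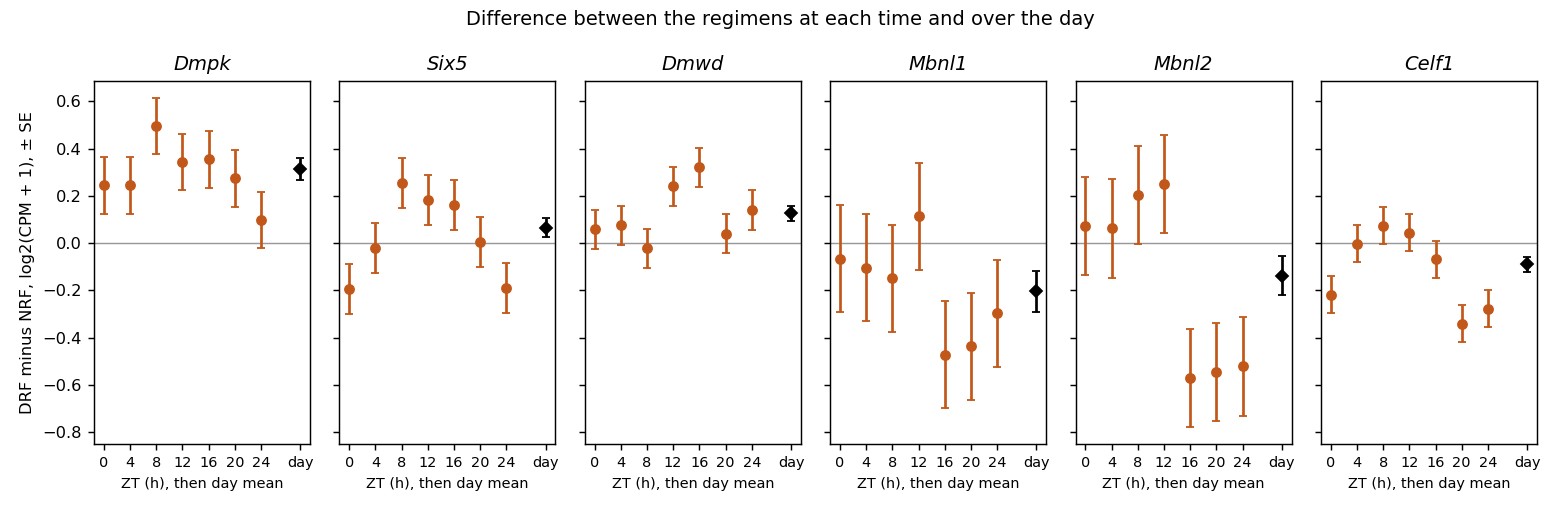
Difference DRF minus NRF on the log2(CPM + 1) scale at each zeitgeber time (dots) and over the day (black diamonds), with bars of 1 SE from the fit of all 56 libraries. Dmpk lay above 0 at all 7 times, with a day mean of 0.31, and Mbnl2 was at -0.57, -0.55 and -0.52 at ZT16, ZT20 and ZT24.

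Around the locus, 16 of the 24 genes within 200000 bases of Dmpk that the table lists were tested. Besides the 3 genes of the locus, 13 were tested, and their differences over the day ran from -0.06 to 0.17 log2 units with a median of 0.03. The day-mean test passed for 2 of these 13, both higher in DRF, where 8.35% of all genes tested passed in that direction. They were Snrpd2, a core protein of the spliceosome's small nuclear particles, at 0.17 ± 0.04 (limma adjusted p = 0.0048), and Irf2bp1, a transcriptional corepressor, at 0.09 ± 0.03 (0.0397). Dmpk itself, which was chosen on this contrast, had the largest value of the 16, at 0.31. Rtn2, a reticulon of the endoplasmic reticulum that is abundant in muscle, was at 0.12 ± 0.05 (0.102).

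**Figure D3:**
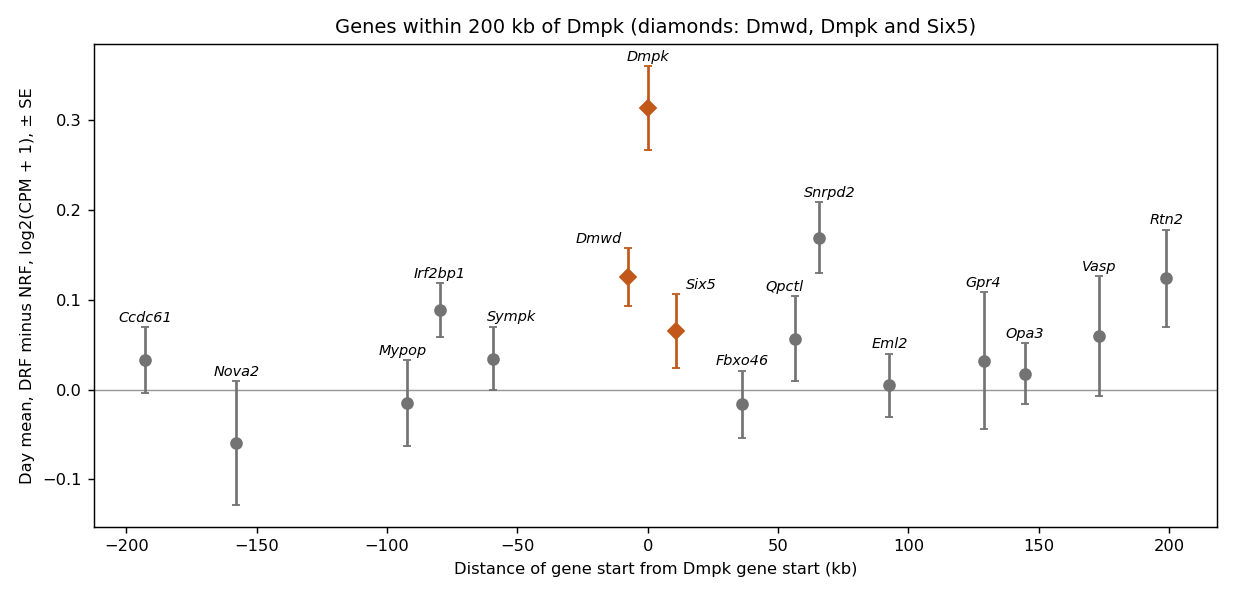
Day-mean difference, DRF minus NRF, on the log2(CPM + 1) scale with bars of 1 SE, for the 16 tested genes within 200000 bases of Dmpk, against the distance (kb) of each gene start from that of Dmpk. Dmpk stands at 0.31, and the 13 genes drawn as grey dots lie between -0.06 and 0.17.

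Both muscleblind genes had lower means under daytime feeding from ZT16 to ZT24. MBNL1 is the main muscleblind protein of adult muscle and MBNL2 its close relative. At ZT16 the libraries had 258.3, 279.5, 184.8 and 321.2 CPM of Mbnl2 in DRF, against 362.0, 374.5, 399.9 and 387.2 CPM in NRF. At ZT20 they had 121.0, 294.1, 305.7 and 331.5 CPM in DRF and 394.5, 411.6, 429.7 and 236.7 CPM in NRF. At ZT24 they had 262.9, 265.0, 275.3 and 125.2 CPM in DRF and 330.3, 269.4, 297.4 and 388.3 CPM in NRF. The groups were apart at ZT16 and overlapped at ZT20 and ZT24, where 1 DRF library in each was far below the rest. From ZT0 to ZT12 the DRF means of Mbnl2, 291 to 314 CPM, were slightly above the NRF means of 256 to 288 CPM, though at ZT0 the sign turned on the total of recovered reads (-0.05) and with quantile scaling (-0.01). In log2 units the Mbnl2 difference was 0.25 ± 0.21 at ZT12, -0.57 ± 0.21 at ZT16, -0.55 ± 0.21 at ZT20 and -0.52 ± 0.21 at ZT24. NRF ZT20 replicate 4, at 236.7 CPM, also stood apart from its group. With any 1 library left out, the difference ran from -0.75 to -0.21 at ZT20 and from -0.63 to -0.25 at ZT24. Without DRF ZT20 replicate 1 and DRF ZT24 replicate 4, and with NRF ZT20 replicate 4 kept, the differences at ZT20 and ZT24 were -0.21 and -0.25. The day mean was then -0.06 in place of -0.14 ± 0.08. The day mean was also -0.06 with the gene-length trend removed, and -0.22 on the total of recovered reads.

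Mbnl1 also had lower means in DRF from ZT16 to ZT24, but unlike Mbnl2 its DRF means were below the NRF means at ZT0, ZT4 and ZT8 as well. At ZT16 its levels were 376.9, 297.6, 299.5 and 500.9 CPM in DRF and 445.9, 485.5, 562.9 and 513.6 CPM in NRF. At ZT20 they were 186.2, 512.2, 517.7 and 442.8 CPM in DRF and 614.6, 524.1, 614.2 and 372.4 CPM in NRF. At ZT24 they were 356.6, 508.6, 459.7 and 240.5 CPM in DRF and 509.3, 353.8, 437.6 and 581.4 CPM in NRF. The regimens overlapped at every time. The difference was -0.47 ± 0.23 log2 units at ZT16, -0.44 ± 0.23 at ZT20, -0.30 ± 0.23 at ZT24 and between -0.15 and 0.11 at the earlier times. With any 1 library left out, it ran from -0.60 to -0.09 at ZT20 and from -0.44 to -0.08 at ZT24. Without the 2 DRF libraries lowest in Mbnl1, 1 in each group, it was -0.09 at ZT20 and -0.08 at ZT24. These 2 were picked after seeing the data and all NRF libraries were kept, NRF ZT20 replicate 4 at 372.4 CPM among them. A smaller difference therefore followed from the choice, and nothing is read from it. Over the day it was -0.21 ± 0.09, against -0.13 without the 2 libraries that stood apart and -0.10 with the gene-length trend removed, and -0.28 on the total of recovered reads.

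Celf1, whose protein often opposes MBNL at the same exons, was lower in DRF at the end of the dark phase and at lights on. At ZT20 the libraries had 79.5, 89.9, 93.9 and 84.5 CPM in DRF, against 110.6, 100.2, 110.8 and 120.0 CPM in NRF. At ZT0 they had 90.0, 92.0, 80.4 and 91.7 CPM in DRF, against 110.7, 98.9, 103.3 and 99.6 CPM in NRF. At ZT24 they had 77.8, 84.1, 84.1 and 74.1 CPM in DRF, against 103.3, 84.0, 91.8 and 111.9 CPM in NRF. The groups did not overlap at ZT20 and ZT0, and nearly parted at ZT24. The difference was -0.34 ± 0.08 log2 units at ZT20, -0.28 ± 0.08 at ZT24 and -0.22 ± 0.08 at ZT0, and between -0.07 and 0.07 from ZT4 to ZT16. On the total of recovered reads it was -0.12 at ZT12, -0.22 at ZT16, -0.38 at ZT20, -0.34 at ZT24 and -0.34 at ZT0. Without the 2 libraries that stood apart it was -0.30 at ZT20 and -0.24 at ZT24. Over the day it was -0.09 ± 0.03, against -0.04 with the gene-length trend removed and -0.17 on the total of recovered reads.

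The libraries also differed in how their long genes deviated. For each library the rank correlation across genes of the deviation from the gene's mean with gene length was taken, so that a negative value means that long transcripts were low in that library. It had a median of -0.06 in DRF libraries and 0.11 in NRF libraries. Its group means in DRF were 0.12 at ZT0, 0.01 at ZT4, 0.06 at ZT8, -0.14 at ZT12, -0.20 at ZT16, -0.19 at ZT20 and -0.13 at ZT24. In NRF they ran from -0.01 at ZT24 to 0.19 at ZT0. The lowest value of all 56 libraries, -0.37, was that of DRF ZT20 replicate 1, with DRF ZT16 replicate 3 at -0.33 and DRF ZT24 replicate 4 at -0.31 next to it. Mbnl1 (18717 bases), Mbnl2 (11993 bases) and Celf1 (8446 bases) are longer than 99.0%, 94.1% and 84.1% of the genes tested, whose median was 4492 bases, and Dmpk (4330 bases) is near that median. DRF minus NRF, in log2 units, Mbnl1, Mbnl2 and Celf1 were at 0.11, 0.25 and 0.04 at ZT12. At ZT16 they were at -0.47, -0.57 and -0.07. Within groups the lowest library was the same for Mbnl1 and Mbnl2 in 9 of 14 groups and for Mbnl1 and Celf1 in 10 of 14, against 1 of 14 for Mbnl1 and Dmpk. Sums of several marker lists were also near an end of their range in the 2 libraries that stood apart. The slow fibre markers summed to 2794 CPM in DRF ZT20 replicate 1 and 2714 CPM in DRF ZT24 replicate 4, where the range was 12.9 to 2815 CPM in DRF and 40.3 to 3142 CPM in NRF. DRF ZT20 replicate 1 had the highest sums in DRF of the endothelial markers, 471 CPM (DRF from 161 CPM, NRF 191 to 410 CPM), and of the smooth muscle markers, 158 CPM (DRF from 59.0 CPM, NRF 64.2 to 151 CPM). DRF ZT24 replicate 4 had the lowest sum in DRF of the satellite cell markers, 8.56 CPM (DRF up to 15.8 CPM, NRF 8.56 to 17.3 CPM). The part of transcript length and of these cell types in the levels was not tested beyond the values with the trend removed, which for Mbnl2 were -0.44 at ZT16, -0.40 at ZT20 and -0.45 at ZT24.

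**Figure D4:**
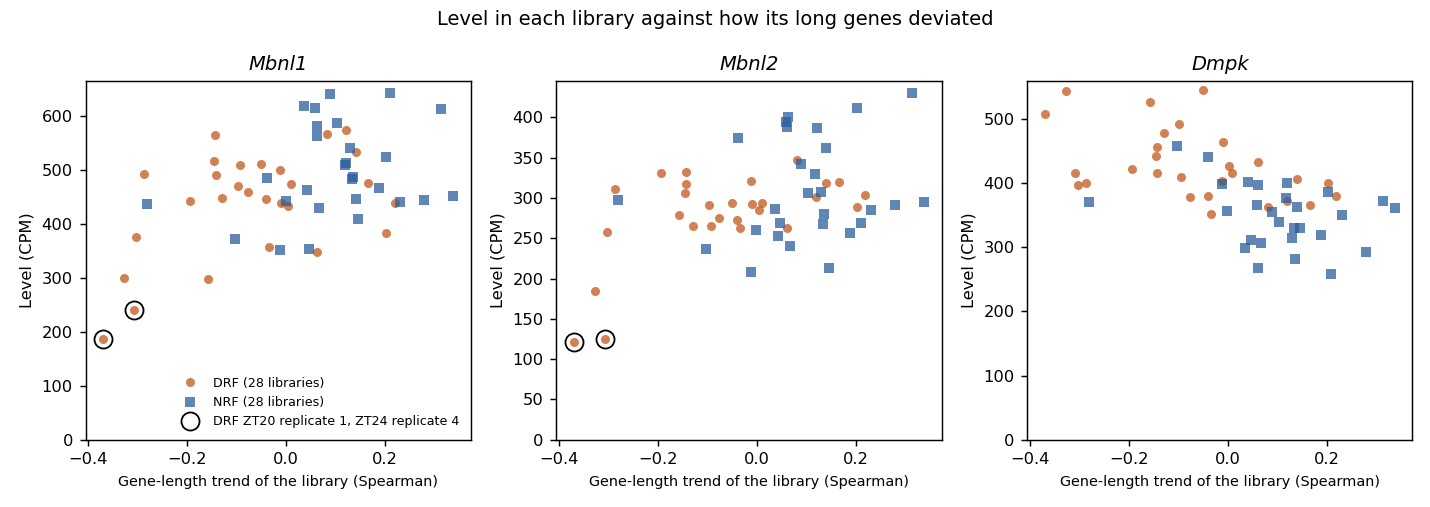
Level (CPM, linear axes from 0) of Mbnl1, Mbnl2 and Dmpk in each of the 28 DRF (dots) and 28 NRF (squares) libraries, against the gene-length trend of the library, the Spearman correlation across genes of log2 deviation with length. The 2 circled libraries, DRF ZT20 replicate 1 and DRF ZT24 replicate 4, have trends of -0.37 and -0.31 and the lowest levels of both muscleblind transcripts.

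Within a regimen the question was whether any of the 6 transcripts followed the time of day. In DRF a rhythm of 24 h was found for 3 of 6, Celf1, Six5 and Dmwd, where 48.7% of all genes tested passed, so the share was near that of the whole table. In NRF it was found for 1 of 6, Mbnl2, where 15.1% passed. The clearest was Celf1 in DRF, whose fitted curve spanned 0.34 ± 0.07 log2 units from trough to peak (1.26-fold), with its peak at ZT8.70 ± 0.76 h and a limma adjusted p of 0.000443. Its DRF group means ran from 88.5 ± 5.47 CPM at ZT0 over 106 ± 6.27 CPM at ZT8 to 80.0 ± 4.92 CPM at ZT24 (SD, n = 4 each). In NRF the fitted Celf1 value was 0.10 ± 0.06, with an adjusted p of 0.587. The authors' deposited table of rhythm tests also lists Celf1 in DRF, with an adjusted p of 0.00747 and a phase of 8.57 h, and none of the other 5 genes below 0.05 in either regimen.

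Six5 in DRF spanned 0.26 ± 0.08 log2 units with a peak at ZT11.5 ± 1.26 h (limma adjusted p = 0.0149), and 0.16 ± 0.08 in NRF (0.311). For Dmwd the DRF value was 0.21 ± 0.07 with a peak at ZT15.0 ± 1.35 h (0.0465), and the NRF value was 0.03 ± 0.08 (0.958). The Dmwd call did not hold under 6 of 16 other settings and in 14 of 56 fits that each left out 1 library, all of them DRF libraries (ZT0 replicates 1 to 4, ZT4 and ZT8 replicate 2, ZT12 replicates 1 and 4, ZT16 replicates 1 to 3, ZT20 replicates 1 and 2, ZT24 replicate 3), with adjusted p up to 0.0992. Under the other settings its adjusted p reached 0.750, on the total of recovered reads. The Six5 call did not hold on the total of recovered reads or without ZT24. Mbnl2 was called in NRF, where its curve spanned 0.56 ± 0.17 (1.47-fold) with a peak at ZT18.8 ± 1.03 h (0.0475). Its NRF group means were lowest at ZT8, 256 ± 30.9 CPM, and highest at ZT16, 381 ± 16.3 CPM (SD, n = 4 each). That call was lost under 9 of 16 other settings, with adjusted p up to 0.169, and in 37 of 56 fits without 1 library, with adjusted p up to 0.103, among them each of the 4 NRF ZT16 libraries and each of the 4 DRF ZT12 libraries. Without the 2 DRF libraries that stood apart its adjusted p was 0.00156. In DRF the Mbnl2 value was 0.32 ± 0.16 (0.207), and 0.08 (0.855) without the 2 libraries that stood apart.

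Dmpk and Mbnl1 passed in neither regimen. The Dmpk curve spanned 0.20 ± 0.10 log2 units in DRF (limma adjusted p = 0.196) and 0.25 ± 0.10 in NRF (0.209). For Mbnl1 the values were 0.39 ± 0.18 in DRF (0.141) and 0.05 ± 0.16 in NRF (0.980). The Mbnl1 value in DRF passed on the total of recovered reads (0.0258) and was 0.19 (0.552) without the 2 libraries that stood apart. Differences in peak-to-trough between the regimens were part of the contrast that chose the genes, and lay between -0.24 ± 0.24 for Mbnl2 and 0.34 ± 0.24 for Mbnl1.

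**Figure D5:**
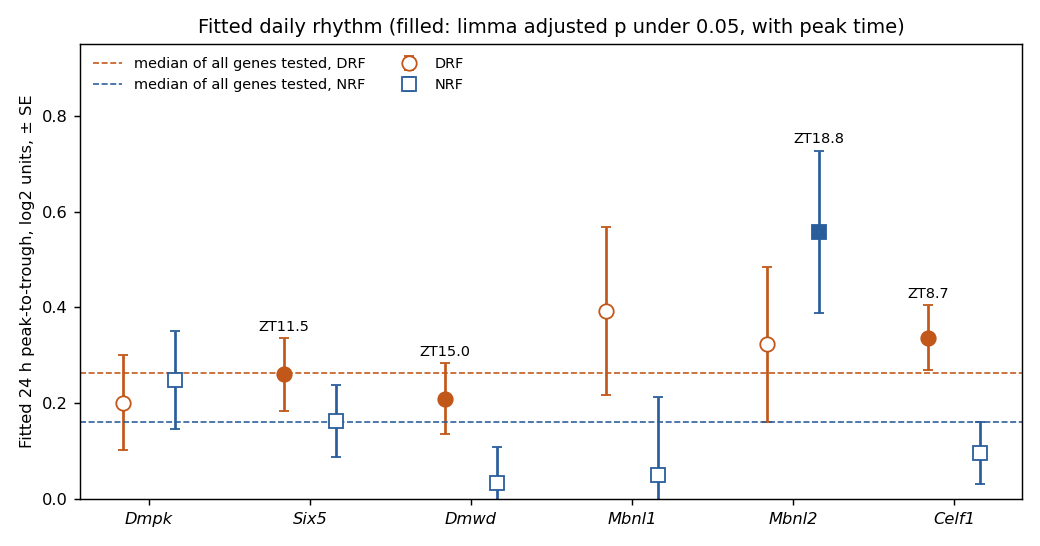
Fitted peak-to-trough of a 24 h curve in log2 units, with bars of 1 SE, for each gene in DRF (circles) and NRF (squares). Filled symbols passed a limma adjusted p of 0.05 and carry their fitted peak time; dashed lines are the medians of all 12025 genes tested, 0.26 in DRF and 0.16 in NRF. Celf1, Six5 and Dmwd are filled in DRF and Mbnl2 in NRF.

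A test of any difference among the 7 times passed for 2 of 6 genes in DRF, where 47.2% of all genes passed: Celf1 (limma adjusted p = 0.000259) and Dmwd (0.0231). The Dmwd call was lost without DRF ZT0 replicate 3, DRF ZT16 replicate 1 or DRF ZT16 replicate 2, with adjusted p up to 0.112. It was also lost on the total of recovered reads (0.649), on the deposited values (0.121), with the gene-length trend removed (0.0805) and without ZT0 (0.274). Six5 (0.0779) passed without DRF ZT8 replicate 2 or DRF ZT20 replicate 1, with adjusted p down to 0.0164. It also passed with quantile scaling (0.0190), on the deposited values (0.0433), with library weights (0.0207) and without the 2 libraries that stood apart (0.0342). In NRF it passed for 0 of 6, where 19.7% of all genes passed; limma with voom weights also found 0, and 2 of the 6, Dmpk and Dmwd, had an unadjusted p under 0.05. Dmpk passed in NRF without NRF ZT16 replicate 3 (0.0319), Dmwd without DRF ZT8 replicate 3, NRF ZT0 replicate 3 or NRF ZT20 replicate 1 (down to 0.0366), and Mbnl2 without DRF ZT20 replicate 1 (0.0374). Dmwd also passed in NRF on the deposited values (0.0312), and Six5 (0.0183) and Mbnl2 (0.000143) with library weights. Without the 2 libraries that stood apart, Mbnl2 passed in NRF (0.00541). At the end of the fast against the end of feeding, which is ZT0 and ZT24 against ZT12 in DRF, Celf1 fell by 0.20 ± 0.07 log2 units (adjusted p = 0.0312), the 1 of 6 called, where 20.5% of all genes passed, 11% higher and 9.52% lower. That Celf1 call was lost without ZT24 (0.251), on the total of recovered reads (0.343), with quantile scaling (0.0523) and without the 2 libraries that stood apart (0.0504). It was also lost in 6 of 56 fits without 1 library (DRF ZT0 replicate 3, ZT12 replicates 1, 3 and 4, ZT24 replicates 1 and 4), with adjusted p up to 0.133. With quantile scaling Six5 passed in place of Celf1 (0.0282). In NRF, where the fast ends at ZT12, 0 of 6 passed against 9.79% of all genes, 0 with voom weights and 0 at an unadjusted p under 0.05. ZT24 and ZT0, the same clock time in separate libraries, differed for 0 of 6 genes in DRF (0.274% of all genes passed) and 0 of 6 in NRF (0% passed), also with voom weights. Unadjusted, 2 of 6 in DRF (Dmwd and Mbnl2) and 0 of 6 in NRF were under 0.05.

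Over the 14 group means of log2(CPM + 1), described without a test since all genes share the libraries, the genes most like Dmpk were Bola1 (r = 0.90), Znrd2, Ccdc107, Alg14 and U2af1l4, with recovered lengths of 1082 to 3083 bases. Those most like Mbnl1 were Efr3a (r = 0.96), Rlf, Ecpas, Spag9 and Rabep1, with lengths of 6868 to 11447 bases. Among the 6 members, r over the same means was 0.67 between Dmpk and Dmwd, 0.21 between Dmpk and Six5, 0.66 between Mbnl1 and Mbnl2, 0.68 between Mbnl1 and Celf1 and -0.59 between Dmpk and Mbnl1.

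Of the other muscleblind and CELF genes, all but Celf2 were scarce in this muscle. Mbnl3 stood at 0.342 CPM on average and Celf3 to Celf6 at 0.310 CPM or less, below the filter of 1 CPM. The curve of Celf2, at 82.0 CPM, spanned 0.17 log2 units in DRF (limma adjusted p = 0.451) and 0.19 in NRF (0.588), and a day-mean difference of -0.11 ± 0.07 log2 units (0.264).

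Of 24 transcripts known for altered splicing in myotonic dystrophy, all tested, the gene-level rhythm test passed for 14 in DRF, where 48.7% of all genes passed, and 1 in NRF, where 15.1% did. The median span of their curves was 0.40 log2 units in DRF and 0.17 in NRF, where the medians of all genes were 0.26 and 0.16. Read counts per gene carry no measure of splicing. Among those called in DRF were Insr, the insulin receptor, at 0.69 with a peak at ZT3.48 (limma adjusted p = 1.45e-07), Camk2g, a calcium-regulated kinase, at 0.44 and ZT13.8 (6.44e-05), and Clcn1, the muscle chloride channel whose loss causes myotonia, at 0.40 and ZT12.1 (0.000574). At the end of the fast in DRF 7 of the 24 passed, 2 higher and 5 lower, where 20.5% of all genes passed, 11% higher and 9.52% lower. Insr rose by 0.39 ± 0.10 log2 units, while Clcn1 fell by 0.46 ± 0.10 and Camk2g fell by 0.38 ± 0.08. In NRF 0 of 24 passed, where 9.79% of all genes did. Over the day 1 of 24, Insr, differed between the regimens (-0.13 ± 0.04, adjusted p = 0.0338), where 15.9% of all genes did and 7.53% of all genes were lower.

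Of 16 RNA-binding proteins and kinases studied in CUG repeat toxicity, 11 were rhythmic in DRF (48.7% of all genes) and 1 in NRF, Rbfox2 (15.1% of all genes). The curve of Rbfox2, which encodes a splicing factor, spanned 0.68 log2 units and peaked at ZT8.15 in DRF (limma adjusted p = 2.29e-07), and 0.53 and ZT6.22 in NRF (7.81e-05). Over the day 5 of the 16 were lower in DRF and none higher, where 7.53% of all genes were lower: the RNA helicases Ddx5 (-0.18 ± 0.05, adjusted p = 0.00718), Ddx6 (-0.10 ± 0.03, 0.0109) and Ddx17 (-0.12 ± 0.04, 0.0249), then Rbfox2 (-0.14 ± 0.04, 0.0163) and the kinase gene Gsk3b (-0.11 ± 0.03, 0.0264). 

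Of 9 substrates and partners of the DMPK kinase, 6 were rhythmic in DRF (48.7% of all genes) and 1 in NRF (15.1%). Over the day 2 were higher in DRF, where 8.35% of all genes were: Fxyd1, the phospholemman that regulates the sodium pump, at 0.19 ± 0.04 log2 units (limma adjusted p = 0.00347), and Srf, a transcription factor of muscle genes, at 0.12 ± 0.04 (0.0459). Of 10 kinases related to DMPK, 7 were rhythmic in DRF (48.7% of all genes) and 2 in NRF (15.1%). Over the day 4 of them were lower in DRF and none higher, where 7.53% of all genes were lower: Cdc42bpg by -0.22 ± 0.05 (0.00362), Cdc42bpa by -0.14 ± 0.04 (0.0135), Stk38l by -0.09 ± 0.03 (0.0251) and Rock2 by -0.28 ± 0.09 (0.0261). The day-mean calls of list genes were not followed under the other settings. Over all genes, the 1909 calls became 1056 with the length trend removed, 1157 without the 2 libraries that stood apart and 3498 on total recovered counts. Of 12 transcription factors and cofactors of the network in which SIX5 acts (Six4, Eya1 and others), 10 were tested, 5 were rhythmic in DRF (48.7% of all genes) and 2 in NRF (15.1%), and none passed over the day, where 15.9% of all genes did. The Six4 curve spanned 0.81 log2 units with a peak at ZT2.12 in DRF (2.8e-05) and 0.21 in NRF (0.556). Eya1 passed in NRF (0.63, ZT24.0, 5.6e-05) and was at 0.03 in DRF (0.979); these pairs of values were not tested against each other.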

How the data were processed

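Gastrocnemius RNA of 56 libraries was read as paired ends of 100 bases on a BGISEQ-500, per the labels' protocols; HISAT2, Bowtie2, RSEM, mm10 and GRCm38.p6 are named in the submitters' processing notes, with no versions. The values that the authors deposited under the heading TPM are a score, not TPM: they follow K × log2(1 + 1000000 × c / N) / L, with c a read count, N a library size, L the length of the gene, and K set so that each column sums to 1000000. The formula was solved for c from genes with 1 and 2 reads and checked on 808 values near 3 reads. Of these, 805 lay within a relative deviation of 1e-06 from the score that the formula gives for 3 reads. The inversion was also tested on simulated data, where 100% of lengths and of counts came back exactly in the 2122 genes with a mean of 30 reads or more. Counts were recovered for 17443 genes (14835 whole, 2608 with decimals), and 1629 genes with fewer than 4 values above 0 were left out. The authors' library sizes were 0.854 to 1.21 times the recovered totals. Gene symbols and coordinates came from RefSeq (18955 IDs had a symbol).

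CPM were computed on N, and log2(CPM + 1) of the 12025 genes with a mean of at least 1 CPM was fitted with limma 3.58.1 (lmFit and eBayes with a trend) in R 4.3.3, on all 14 groups at once; 1790 of these genes had decimal counts. A cosine and sine of 24 h per regimen gave rhythms, and group means gave the other contrasts, with ZT0 and ZT24 together as 1 time in the day mean. Benjamini-Hochberg adjustment ran over all genes tested, with a threshold of 0.05. The scripts were tested on simulated data. The p-values, q-values and other columns (phases in hours, amplitudes) of the authors' deposited rhythm tables are quoted where named; the base levels in these tables were nearer the mean of their own regimen for 90.1% (DRF) and 92.3% (NRF) of genes. All columns of the deposited tables were assigned.

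The members and the gene lists were chosen with earlier results of these data known. Named were all 6 members, of each list up to 4 genes called in a test by smallest p, and the 5 genes most like Dmpk and Mbnl1; a 5th gene of the CUG list was named because its count was 5. Values of list genes that did not pass are given for contrast, and some genes that this rule names are not reported here. Alternatives changed the scaling, the pseudocount (0.25 or 4), the filter, the weights, the unit, the length trend, the replicate block, ZT0 or ZT24, or left out libraries. Depth was 28173234 to 36183625 recovered reads, so counting error was small beside the spread between libraries except for Six5.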

Additional observations from a re-analysis of the deposited data

Results flagged for a closer look

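In 6 of the 84 groups of 4 libraries, 1 library stood further from the other 3 than Dixon's 95% critical value for 4 samples allows, where chance alone gives about 1 in 20 groups. DRF ZT20 replicate 1 was far below its group in Mbnl1, at 186 CPM, and in Mbnl2, at 121 CPM, and DRF ZT24 replicate 4 was far below its group in Mbnl2, at 125 CPM. Their gene-length trends, -0.37 and -0.31, were among the lowest, and their slow fibre marker sums, 2794 and 2714 CPM, were near the top of the DRF range. DRF ZT20 replicate 1 also had the highest endothelial (471 CPM) and smooth muscle (158 CPM) sums in DRF, and DRF ZT24 replicate 4 the lowest satellite cell sum (8.56 CPM); the part of any of these was not tested. In NRF, Mbnl1 was high in ZT4 replicate 3, at 587 CPM, and Mbnl2 was low in ZT20 replicate 4, at 237 CPM. Celf1 was low in DRF ZT0 replicate 3, at 80.4 CPM.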

How the results depend on the processing

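With 16 other settings and 56 fits that each left out 1 library, the Celf1 rhythm in DRF was called in every one, with adjusted p (limma) of 0.000217 to 0.00179 in those fits without 1 library. The members called rhythmic in DRF numbered 3; without ZT24 they were 1, and 2 to 3 with 1 library left out. In NRF 1 was called, and 0 under TMM-type, median-of-ratios or quantile scaling, on total recovered counts, on the deposited values, with no filter, with voom weights, without ZT0 and with the replicate block, and 0 to 1 with 1 library left out. Any difference in time in DRF (2 called) was 1 on total recovered counts, with the length trend removed or without ZT0, and 1 to 3 with 1 library left out; in NRF (0 called) it was 1 on the deposited values and without the 2 libraries lowest in Mbnl1, 2 with library weights, and 0 to 1 with 1 library left out. End of fast against end of feeding in DRF (1 called) was 0 on total recovered counts, without ZT24 and without those 2 libraries, and 0 to 1 with 1 library left out. Leaving out those 2 libraries was chosen after seeing the data. The day-mean difference of Dmpk was 0.0468 on the log2 scale of the deposited values, which are compressed by construction, and 0.29 to 0.33 with 1 library left out. Genes called over the day, 1909, were 3498 on total recovered counts, 1056 with the length trend removed, 1058 without ZT24 and 1157 without those 2 libraries. With 1 library left out that number ran from 1269 (NRF ZT20 replicate 3 left out) to 2917 (NRF ZT20 replicate 4 left out) and moved as far downward without DRF ZT20 replicate 1; for the end of fast in DRF, 2464 genes, it was 1538 without DRF ZT12 replicate 1 and 1554 without DRF ZT12 replicate 4. On total recovered counts the median day-mean difference of all genes was -0.0724. Same-numbered libraries did not deviate together on average (mean r = -0.0166, and 8 of 56 nearest to their own number), though 33% of their 364 pairs had r over 0.1. A mean cannot show whether some of them share a batch, and the labels do not say. With the replicate block the calls of the members were 3 in DRF and 0 in NRF, the Mbnl2 rhythm having an adjusted p of 0.0577. Depth limits Six5 alone of the 6.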
